A study of Homo sapiens with 12 samples.

Results

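A set of 10 genes that report on and restrain signalling through the kinase ERK were followed: DUSP4, DUSP5, DUSP6, SPRY1, SPRY2, SPRY4, SPRED1, SPRED2, ETV4 and ETV5. They were chosen by name, as rows of the gene tables whose Ensembl identifier maps to these symbols. All 10 were found among 57820 gene identifiers, and 9 of them were among the 15750 genes with enough reads to be tested. DUSP4 was not.

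RNA sequencing was carried out in G401, a human malignant rhabdoid tumour line of the genotype SMARCB1(-/-). SMARCB1 belongs to the core of SWI/SNF (BAF) remodellers of chromatin, and its loss defines this tumour. In every group doxycycline induced a protein, either GFP as the control or SMARCB1, so all 4 groups share the line, its genotype and the inducer. Each of these states was treated for 24 hours. The treatment was dBRD9-A, a compound that leads to degradation of the non-canonical BAF subunit BRD9, or its solvent DMSO. GFP cells and SMARCB1 cells below mean cells with these induced proteins, each in DMSO or with dBRD9-A, with 3 replicates a group. It is a single cell line, and the labels do not say whether replicates came from separate cultures, so p-values measure only the spread between these libraries, which may be technical.

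Growth factor receptors activate RAS, RAF, MEK and ERK in turn, and active ERK induces genes whose products dampen the same cascade. DUSP proteins of this group remove phosphate from ERK, with DUSP6 acting in the cytoplasm and DUSP4 and DUSP5 in the nucleus. Sprouty proteins (SPRY) act between the receptor and RAF, and SPRED proteins bring the RAS inhibitor neurofibromin to the membrane. ETV4 and ETV5 are ETS transcription factors that carry the response on to further genes. The repressor CIC, which ERK signalling inactivates, is known to hold down ETV4, ETV5, DUSP and SPRY genes. ERK phosphorylation itself was not analysed here.

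Libraries held 34.97 to 58.54 megacounts (1e6 counts) assigned to genes, and a count of 3, used as the detection floor, corresponded to 0.0516 to 0.0847 counts per megacount (CPM). Intervals and floors cover counting error and replicate spread only. SMARCB1 had 0 to 2 counts in GFP libraries and 53033 to 110893 counts in SMARCB1 libraries, as the labels say. Among SMARCB1 libraries its mRNA, at 1810, 1910 and 1910 CPM in DMSO, was lower with the compound, at 1320, 1330 and 1280 CPM (1.43-fold, log2 -0.52, edgeR adjusted p 4.95e-08). BRD9 mRNA differed by log2 0.10 with dBRD9-A in GFP cells (edgeR adjusted p 0.146) and by 0.02 in SMARCB1 cells (edgeR adjusted p 0.921). That compound acts on the protein. With SMARCB1, BRD9 mRNA was higher, by log2 0.29 in DMSO (edgeR adjusted p 1.64e-05) and 0.21 with dBRD9-A (edgeR adjusted p 0.000621). The part of this difference in the responses to the compound was not tested. Of 4 markers of other cell types found, PTPRC of blood cells had 0 counts in every library and DCN and LUM of stroma had 0 to 1. EPCAM, an epithelial surface protein, ranged from 27 to 44 counts in GFP DMSO libraries, from 14 to 23 in GFP dBRD9-A libraries and from 0 to 3 in SMARCB1 libraries. The summed level of the 4 markers was 0.621 to 0.761 CPM in GFP cells in DMSO and 0.327 to 0.606 with dBRD9-A. In SMARCB1 cells it was 0.0252 to 0.0524 CPM and 0.0249 to 0.0698 CPM in the same order. Its part in the results was not tested.

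Promoter sequence shows what ERK-responsive letters lie close to the start of these genes. Windows of 250 bases before a transcription start were taken from RefSeq (GRCh38.p14) for 6 of the 10 genes, DUSP6, SPRY1, SPRY2, SPRY4, SPRED1 and SPRED2, 10 windows in all. They were searched on both strands for the ETS core CCGGAAG, the AP-1 letters TGANTCA, the CRE letters TGACGTCA, the CArG box, and the CIC octamers TGAATGAA, TGAATGGA, TCAATGAA and TCAATGGA. The motifs were chosen after values of these genes were known, and none of them contains another. Of 35116 RefSeq windows of this length, 8.52% held the ETS core, 6.57% AP-1, 1.65% CRE, 1.16% a CArG box and 3.18% a CIC octamer. Only 2 matches were found in the 10 windows. DUSP5, ETV4 and ETV5 had no window in this source, and DUSP4 was left out of the search. The DUSP6 window held TCAATGGA on its reverse strand, 24 to 17 bases before the start, at chr12:89352507-89352536 on the minus strand. One of the SPRY1 windows held the ETS core 67 to 61 bases before the start, at chr4:123398307-123398336 on the plus strand. SPRY2, the member with the largest rise below, had no match in its 3 windows, and the one farthest upstream is chr13:80341127-80341376 on the minus strand. The sequences are given 5′ to 3′ along the gene, with the matched letters in capitals (in DUSP6 the reverse complement of the octamer).
DUSP6: cggagaatgtaTCCATTGAgacgctcgctg
SPRY1: tgccctccgcagCCGGAAGggggccgcggg
SPRY2: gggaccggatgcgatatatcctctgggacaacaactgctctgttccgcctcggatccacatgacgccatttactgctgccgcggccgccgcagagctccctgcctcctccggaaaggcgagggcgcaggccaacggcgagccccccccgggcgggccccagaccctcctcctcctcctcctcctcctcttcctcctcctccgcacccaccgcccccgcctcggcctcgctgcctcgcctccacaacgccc
A match describes letters and is not evidence of binding. GENCODE 29 places the DUSP6 stretch and the SPRY1 stretch within exons of some transcripts.

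SMARCB1 lowered most of the measured feedback genes. In DMSO, 6 of the 9 tested genes fell with SMARCB1 (DUSP6, SPRY4, SPRED1, SPRED2, ETV4 and ETV5), against 31.6% of all genes tested. DUSP5 and SPRY2 rose, against 33.5% of all genes. The 8 called members compare with 65% of all genes called in either direction, so a call by itself does not set these genes apart in a comparison that moved most of the transcriptome. The median log2 fold change of the 9 was -0.63, beside -0.005 over all genes tested. A gene was called where the quasi-likelihood test of edgeR, adjusted by Benjamini-Hochberg over all genes, gave a p under 0.05, and the adjusted p values printed for single genes come from that test unless DESeq2 is named. Changes in RNA from bulk cultures do not tell fewer cells of a type from less RNA per cell. Values are scaled to the bulk of genes (TMM), and scaling to the added spike-in RNAs put the median of all genes at 0.165 in this comparison, which gave 3 members higher and 5 lower. Under that scaling 9412 of all 15750 genes tested were called in either direction.

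ETV5, one of the ETS factors, had the largest fall. It stood at 79.3, 78.3 and 78.7 CPM in GFP cells in DMSO (78.8 ± 0.51, SD, n = 3) and at 6.86, 6.91 and 6 CPM in SMARCB1 cells in DMSO (6.59 ± 0.508, SD, n = 3). Every SMARCB1 library lay far below every GFP library. The level was 12.1-fold lower, or -3.59 in log2 (SE 0.052, adjusted p 1.63e-19). Reads of ETV5 could be shared with DGKG on the same strand in GENCODE 29, which had 0 to 3 counts. ETV4 fell less, from 34.4, 34.3 and 35.5 CPM to 13, 12.8 and 13.2 CPM, with no overlap between the groups. That was 2.67-fold lower, at log2 -1.42 (SE 0.053, adjusted p 1.17e-13). ETV4 overlaps DHX8 on the opposite strand, a well expressed gene with 3331 to 6025 counts, and the strand setting of the counting is not given in the sources used here.

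Of the phosphatases, DUSP6 fell and DUSP5 rose slightly. DUSP6 was at 128, 129 and 136 CPM in GFP cells (131 ± 3.98, SD, n = 3) and at 51, 53.2 and 52 CPM in SMARCB1 cells (52.1 ± 1.08, SD, n = 3). The groups stood well apart. DUSP6 was 2.52-fold lower, at log2 -1.33 (SE 0.037, adjusted p 1.74e-15). DUSP5 was at 53.2, 50.3 and 51.9 CPM and then at 55.1, 60 and 53.9 CPM, close but not overlapping. Its rise of log2 0.12 (SE 0.045, adjusted p 0.0286) was small, and it was no longer called without GFP DMSO replicate 2 (adjusted p 0.097), GFP DMSO replicate 3 (0.0633) or SMARCB1 DMSO replicate 2 (0.18). DUSP4 had 0 counts in all 6 GFP libraries and 0 to 3 counts in the SMARCB1 libraries, at or under the floor in each, and so was not detected at this depth.

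The Sprouty genes went 3 ways. SPRY4 was at 18.5, 18.9 and 19.9 CPM in GFP cells and at 6.2, 6.93 and 6.06 CPM in SMARCB1 cells. All of its SMARCB1 libraries were lower, a 3-fold fall at log2 -1.58 (SE 0.061, adjusted p 1.69e-13). SPRY4 has an antisense partner, SPRY4-AS1, with 2 to 27 counts. SPRY2 was close to silent in GFP cells, with 0.124, 0.242 and 0.207 CPM (7, 10 and 12 counts), and reached 3.87, 4.59 and 4.77 CPM (148, 182 and 277 counts) in SMARCB1 cells. No GFP library came near a SMARCB1 library. The rise was 23.4-fold, at log2 4.55 (SE 0.197, adjusted p 9.57e-13), from counts not far above the floor. SPRY1 held at 30, 30.7 and 30.5 CPM in GFP cells and 31.3, 29.7 and 32.7 CPM in SMARCB1 cells, and the groups overlapped. Its log2 difference of 0.04 (adjusted p 0.445) had a 95% interval of -0.055 to 0.138. With spike-in scaling it was 0.21 (adjusted p 0.0194), near that median of all genes.

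Both SPRED genes fell. SPRED1 went from 64.5, 67.3 and 67.1 CPM to 42.3, 43.6 and 42.3 CPM without overlap, 1.55-fold lower at log2 -0.63 (SE 0.037, adjusted p 5.47e-11). SPRED2 went from 25.8, 27.2 and 24.7 CPM to 19.5, 21.3 and 20.8 CPM, again without overlap. It was 1.26-fold lower at log2 -0.33 (SE 0.058, adjusted p 6.47e-05), and with spike-in scaling it was at -0.17 and no longer called (adjusted p 0.0788).

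**Figure D1:**
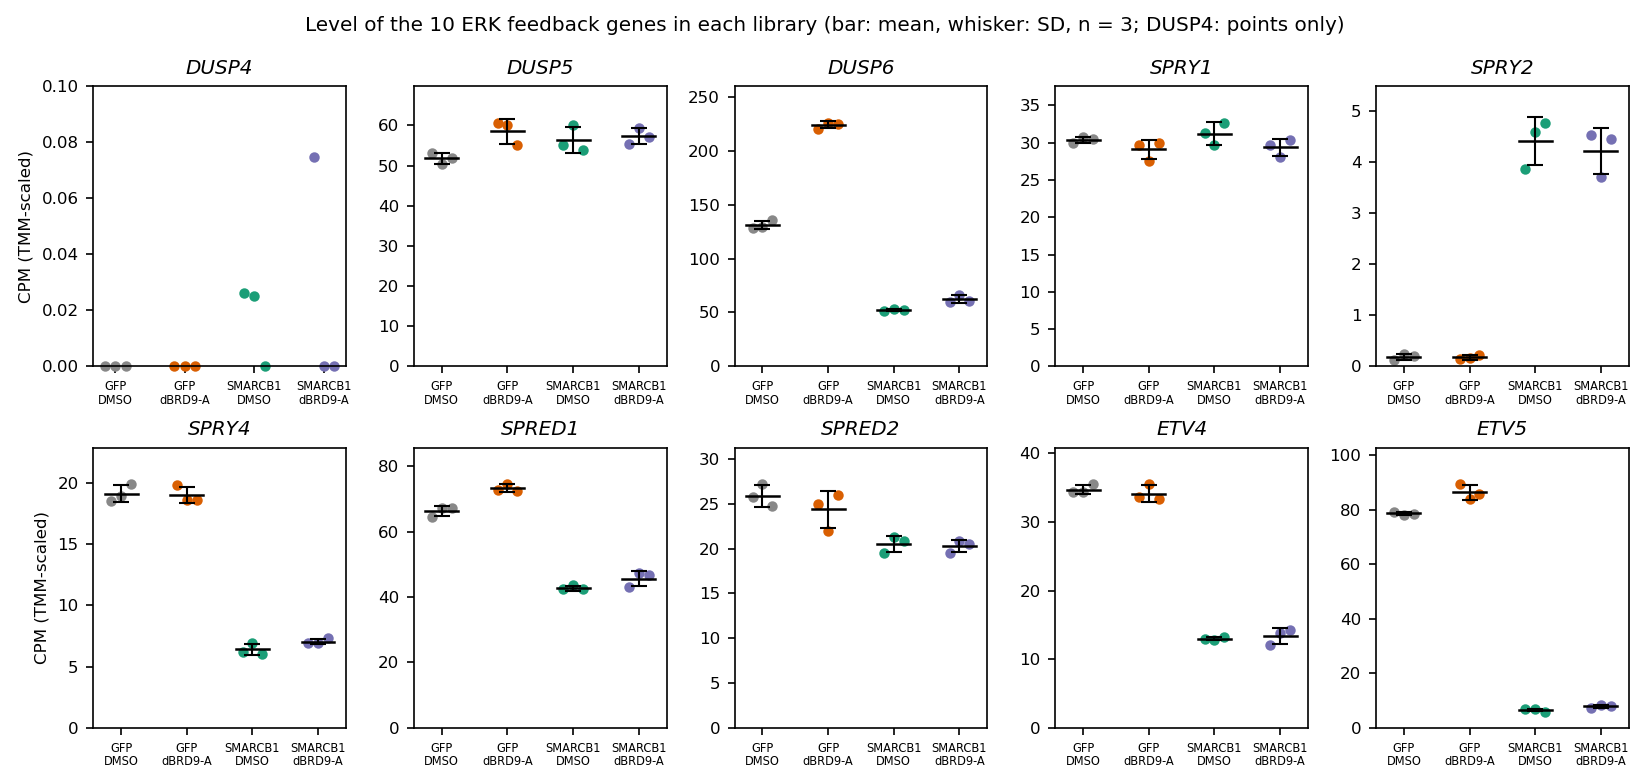
Level of each of the 10 genes in CPM on TMM-scaled library sizes (vertical axis, from 0, a scale for each gene) in the 4 groups (horizontal axis); points are libraries, bars the mean and whiskers the SD of 3 replicates, with points only for DUSP4. ETV5, ETV4, SPRY4 and DUSP6 are lower in all SMARCB1 libraries, SPRY2 is higher, and DUSP6 has its highest values, 220 to 226 CPM, in GFP cells with dBRD9-A.

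Per kilobase of merged exon in GENCODE 29, which allows levels of different genes to be set side by side, DUSP6 had the highest level of the 10 in GFP cells in DMSO, 28.3 ± 0.859 CPM per kb (SD, n = 3). DUSP5 followed with 19.8 ± 0.547 and ETV5 with 13.6 ± 0.0879 CPM per kb. ETV4 was at 9.62 ± 0.187, SPRED1 at 8.03 ± 0.191 and SPRY1 at 7.67 ± 0.102 CPM per kb, the latter pair close together. At the lower end SPRED2 had 5.03 ± 0.239, SPRY4 2.91 ± 0.105 and SPRY2 0.0629 ± 0.02 CPM per kb. In SMARCB1 cells in DMSO the order had changed: DUSP5 led with 21.5 ± 1.24 CPM per kb and DUSP6 followed with 11.2 ± 0.233. ETV5, at 1.14 ± 0.0876, lay near SPRY4 at 0.975 ± 0.0714 and SPRY2 at 1.45 ± 0.155 CPM per kb. These are levels over exon lengths that may differ from the lengths of the transcripts present in this line.

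The effect of SMARCB1 was measured a second time in cells given dBRD9-A, within the same fit. These libraries are not part of the first comparison. Here 7 of the 9 tested genes were called, against 63.3% of all genes. SPRY2 rose (33% of all genes higher) and 6 fell (30.4% of all genes lower), and these 7 were the same genes, in the same directions, as in DMSO. ETV5 went from 89.5, 84.2 and 85.8 CPM to 7.26, 8.24 and 8.17 CPM, 10.9-fold lower (log2 -3.45, SE 0.051, adjusted p 2.07e-19). As in DMSO, its groups stood far apart. DUSP6 went from 220, 226 and 225 CPM to 59.8, 66.5 and 60.8 CPM, 3.58-fold lower (log2 -1.84, SE 0.037, adjusted p 1.8e-17). Its SMARCB1 libraries were all below any GFP library of either treatment.

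For the others with dBRD9-A, SPRY4 went from 19.8, 18.6 and 18.6 CPM to 6.91, 6.93 and 7.31 CPM (log2 -1.43, SE 0.061, adjusted p 7.78e-13). ETV4 went from 33.6, 35.5 and 33.3 CPM to 12.1, 13.8 and 14.3 CPM (log2 -1.34, SE 0.054, adjusted p 3.28e-13). SPRED1 went from 72.7, 74.5 and 72.3 CPM to 43, 47.2 and 46.7 CPM (log2 -0.68, SE 0.037, adjusted p 2.32e-11). None of these 3 had overlapping groups. SPRED2 was at 25, 22 and 26 CPM and then at 19.5, 20.8 and 20.5 CPM (log2 -0.26, SE 0.059, adjusted p 0.000836), also apart but narrowly. SPRY2 went from 0.14, 0.158 and 0.226 CPM (6, 6 and 8 counts) to 4.52, 3.71 and 4.44 CPM, 24-fold higher (log2 4.59, SE 0.217, adjusted p 3.49e-12). DUSP5 did not pass at log2 -0.03 (adjusted p 0.573) and neither did SPRY1 at 0.01 (adjusted p 0.8), the former's rise in DMSO being absent from the called genes here. With spike-in scaling, which put the median of all genes at -0.319, 8 members were lower and 1 higher, and DUSP5 was then called at -0.36 (adjusted p 5.04e-06). That fit called 11175 of all 15750 genes tested in either direction.

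**Figure D2:**
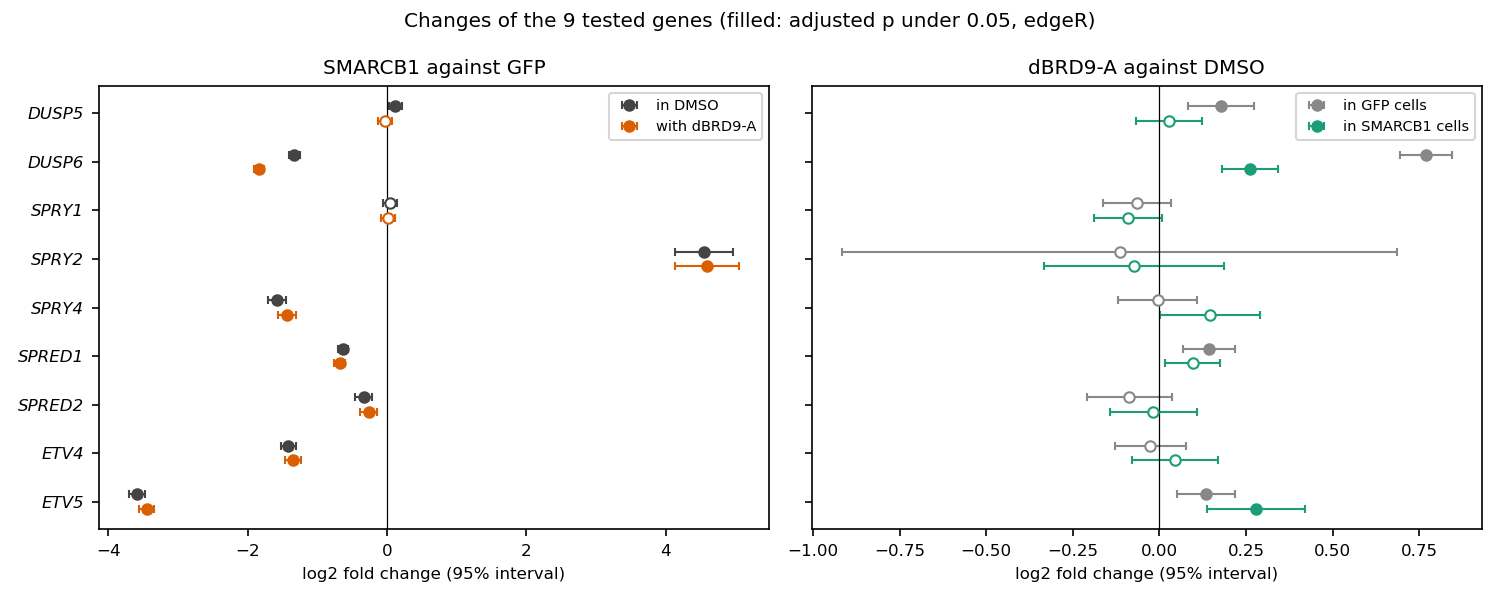
Log2 fold changes of the 9 tested genes with 95% intervals (horizontal axis), SMARCB1 against GFP on the left and dBRD9-A against DMSO on the right; filled points passed adjusted p under 0.05 in edgeR. The left points of both treatments lie close together for all genes but DUSP6, at -1.33 in DMSO and -1.84 with dBRD9-A, and the right panel spans a much narrower range, up to 0.77 for DUSP6.

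In GFP cells, which lack SMARCB1, dBRD9-A raised 1 feedback gene strongly. DUSP6 went from 128, 129 and 136 CPM in DMSO to 220, 226 and 225 CPM with the compound. The lowest treated library was far above the highest control. The rise was 1.7-fold, at log2 0.77 (SE 0.035, adjusted p 8.44e-11). DUSP5, SPRED1 and ETV5 also passed the test, at 1.1-fold to 1.13-fold. The 4 called members compare with 15.9% of all genes called in either direction and 7.43% called higher. None was called lower, against 8.47% of all genes, and none was lower at an unadjusted p under 0.05 in edgeR or by DESeq2, which gave 4 higher and 0 lower. The median log2 fold change of the 9 was -0.005, beside 0 over all genes.

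The smaller rises were less steady. DUSP5 was at 60.7, 60 and 55 CPM with dBRD9-A (log2 0.18, SE 0.045, adjusted p 0.0123), all above its GFP DMSO libraries. Its call was lost without GFP DMSO replicate 2 (adjusted p 0.0506), GFP dBRD9-A replicate 1 (0.0722) or GFP dBRD9-A replicate 2 (0.0568). SPRED1 was at 72.7, 74.5 and 72.3 CPM (log2 0.14, SE 0.035, adjusted p 0.0102), above all 3 controls, and was lost without GFP DMSO replicate 1 (0.0625). ETV5 was at 89.5, 84.2 and 85.8 CPM (log2 0.13, SE 0.039, adjusted p 0.0264), above its controls too. ETV5 lost its call without any of the 3 GFP DMSO replicates (adjusted p 0.0704, 0.0728 and 0.0804) or GFP dBRD9-A replicate 1 (0.141) or 3 (0.0625). The number of called members was 2 without GFP DMSO replicate 1, GFP DMSO replicate 2 or GFP dBRD9-A replicate 1.

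Among the genes that SMARCB1 lowered most, 2 gave no call with dBRD9-A in GFP cells. ETV4 was at 33.6, 35.5 and 33.3 CPM, a log2 difference of -0.03 (adjusted p 0.791) with a 95% interval of -0.128 to 0.077. SPRY4 was at 19.8, 18.6 and 18.6 CPM, a difference of -0.005 (adjusted p 0.97) with an interval of -0.119 to 0.109. Both sets of libraries overlapped their controls. SPRY1 at -0.06 (adjusted p 0.407) and SPRED2 at -0.09 (adjusted p 0.358) gave no call either. SPRY2 had 6, 6 and 8 counts, and its difference of -0.12 (adjusted p 0.895) had a wide interval at this depth, -0.916 to 0.686. Spike-in scaling put the median of all genes at 0.357 here and gave 8 members higher and 0 lower, with DUSP6 at 1.13 (adjusted p 1.05e-16) and SPRY1, SPRY4, SPRED2 and ETV4 turned from below 0 to 0.27 to 0.35, close to that median. That fit called 11310 of all 15750 genes tested in either direction.

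In SMARCB1 cells the same compound raised 2 feedback genes, DUSP6 and ETV5. DUSP6 went from 51, 53.2 and 52 CPM to 59.8, 66.5 and 60.8 CPM, without overlap and 1.2-fold higher (log2 0.26, SE 0.038, adjusted p 0.000888). ETV5 went from 6.86, 6.91 and 6 CPM to 7.26, 8.24 and 8.17 CPM, 1.21-fold higher (log2 0.28, SE 0.067, adjusted p 0.04) and only just apart. These 2 were the called members, against 1.93% of all genes in either direction, 0.679% higher and 1.25% lower. None was called lower, nor lower at an unadjusted p under 0.05 in edgeR or in DESeq2. The median of the 9 was 0.05, beside 0.003 over all genes. Induced SMARCB1 mRNA was itself 1.43-fold lower in these treated cells, and its part in the rises of DUSP6 and ETV5 was not tested.

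DUSP6 and ETV5 were also the members called higher by the compound in both cell states. These states share no libraries, but both calls come from the same fit with a shared estimate of the spread. The ETV5 call in SMARCB1 cells rests on little: it was lost in 9 of the 12 fits that each left out 1 library, those without any GFP DMSO replicate, GFP dBRD9-A replicate 3, any of the SMARCB1 DMSO replicates, or replicate 2 or 3 of SMARCB1 dBRD9-A, with adjusted p of 0.0502 to 0.245. DUSP6 kept its call in all 12. With spike-in scaling, which put the median of all genes at -0.135, neither was called (DUSP6 0.12, adjusted p 0.184; ETV5 0.13, adjusted p 0.274). SPRY4 was at 0.15 (adjusted p 0.389, 95% interval 0.001 to 0.29) and SPRED1 at 0.10 (adjusted p 0.261). DUSP5 at 0.03, SPRED2 at -0.02, ETV4 at 0.05, SPRY1 at -0.09 and SPRY2 at -0.07 gave no call (adjusted p 0.44 to 0.945).

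Whether the response to dBRD9-A depended on SMARCB1 was tested as an interaction, the log2 response in SMARCB1 cells minus that in GFP cells. DUSP6 was the 1 member of 9 called, against 3.8% of all genes called in either direction, 2.15% higher and 1.65% lower. Its response was 0.26 in SMARCB1 cells and 0.77 in GFP cells, a difference of -0.51 (SE 0.052, adjusted p 1.23e-05) with a 95% interval of -0.616 to -0.397. Every pairwise difference between treated and untreated libraries was smaller in SMARCB1 cells than in GFP cells. The lower SMARCB1 mRNA of the treated SMARCB1 cells touches 1 side of this difference, and its part was not tested. Leaving out each library in turn gave -0.558 to -0.477. None of the 9 was called higher, nor higher at an unadjusted p under 0.05 in edgeR or in DESeq2.

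For the rest, the difference of the responses was not past the threshold. DUSP5 was at -0.15 (adjusted p 0.255, 95% interval -0.285 to -0.015), ETV5 at 0.14 (adjusted p 0.392) and SPRY4 at 0.15 (adjusted p 0.426). SPRED1 at -0.05, SPRED2 at 0.07, ETV4 at 0.07, SPRY1 at -0.03 and SPRY2 at 0.04 had adjusted p of 0.716 to 0.995. The interval of SPRY2, -0.78 to 0.863, was the widest. Spike-in scaling put the median of all genes at -0.491 and gave 8 members lower and 0 higher, with DUSP6 at -1.01, about as far below that median as it was below 0 with TMM. That fit called 11270 of all 15750 genes tested in either direction.

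**Figure D3:**
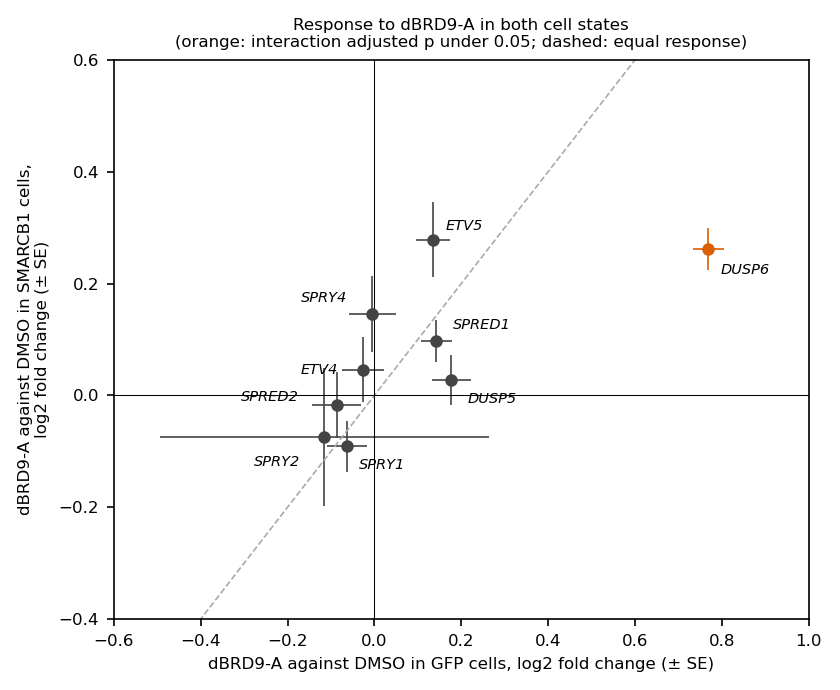
Log2 fold change with dBRD9-A in GFP cells (horizontal axis) and in SMARCB1 cells (vertical axis) of the 9 tested genes, with SE; the dashed line marks an equal response. DUSP6, at 0.77 and 0.26, is the gene in orange, whose interaction passed adjusted p under 0.05, and the others lie within 0.18 of 0 on the horizontal axis.

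The members varied in how alike their profiles were. Likeness was measured as the root mean square difference of log2 CPM, centred on each gene's mean, over the 12 libraries. SPRY4 and ETV4 were the closest pair, at 0.103, both lower with SMARCB1 and without a call for dBRD9-A. DUSP5 and SPRY1 came next at 0.132, the members that changed least. SPRY2 and ETV5, which went in opposite directions, were farthest apart at 3.91. The members nearest to DUSP6 were SPRY4 at 0.287 and ETV4 at 0.314.

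Outside the 10, 12259 genes with a mean of at least 50 counts were compared with DUSP6 in the same way. The nearest was PHLDA3, a p53-induced gene that restrains AKT, at 0.151, followed by SPATA2L at 0.162, GCHFR at 0.17, METAP1D at 0.182 and CD177P1, a pseudogene by its name, at 0.184. PHLDA3 averaged 146 ± 4.11 CPM in DMSO and 201 ± 2.95 CPM with dBRD9-A in GFP cells, and 49.8 ± 0.483 and 53.1 ± 5.55 CPM in SMARCB1 cells (SD, n = 3). This is the order of the DUSP6 groups, with the SMARCB1 pair of PHLDA3 overlapping. METAP1D, a mitochondrial aminopeptidase, averaged 15.1 ± 0.668, 25.4 ± 2.01, 7.47 ± 0.338 and 8.92 ± 0.344 CPM in the same order (SD, n = 3). These genes were picked for their likeness, so their levels are a description.

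Relatives of the 10 in the same families mostly rose with SMARCB1. Of 10 further DUSP, SPRY, SPRED and ETV genes, 7 were tested, and in DMSO 5 rose with SMARCB1 and 1 fell, with a median of 0.32. Of all genes tested, 33.5% rose and 31.6% fell in that comparison. ETV1, the third member of the ETV4 and ETV5 subfamily, rose from 6.01 ± 0.271 to 18.5 ± 0.979 CPM (SD, n = 3, log2 1.62, adjusted p 2.08e-13), opposite to its relatives. DUSP9, a cytoplasmic ERK phosphatase, rose from 0.699 ± 0.131 to 3.35 ± 0.547 CPM (SD, n = 3, log2 2.27, adjusted p 2.6e-09). Its counts were low in GFP cells in DMSO, at 31, 31 and 46. DUSP2, a nuclear ERK phosphatase, fell from 14.1 ± 0.671 to 5.4 ± 0.29 CPM (SD, n = 3, log2 -1.39, adjusted p 6.92e-12). In GFP cells dBRD9-A raised ETV1 (log2 0.30, adjusted p 0.007) and lowered DUSP1, an inducible phosphatase of stress and ERK kinases, from 26.4 ± 0.995 to 20.7 ± 0.459 CPM (SD, n = 3, log2 -0.35, adjusted p 4.77e-05), while with spike-in scaling DUSP1 was at 0.01. DUSP1 was also the family member with an interaction, 0.46 (adjusted p 0.000384), against -0.04 with spike-in scaling.

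Other genes known to be induced by ERK did not share 1 direction. Of 20, 17 were tested, and in DMSO 6 rose and 9 fell with SMARCB1, with a median of -0.26 (7 and 6 with spike-in scaling). Over all genes tested, 33.5% rose and 31.6% fell. Spike-in scaling put the median of all genes at 0.165 there and called 9412 of 15750 in either direction. SPHK1, a sphingosine kinase, fell from 91.9 ± 1.08 to 20.7 ± 1.86 CPM (SD, n = 3, log2 -2.15, adjusted p 1.34e-16). FOS, an immediate early transcription factor, fell from 16.3 ± 0.441 to 3.65 ± 0.65 CPM (SD, n = 3, log2 -2.14, adjusted p 1.75e-12). PHLDA1 rose from 49.5 ± 1.34 to 111 ± 4.45 CPM (SD, n = 3, log2 1.17, adjusted p 1.83e-14). EGR1, another immediate early factor, rose from 0.577 ± 0.158 to 2.35 ± 0.246 CPM (SD, n = 3, log2 2.06, adjusted p 3.54e-08), the opposite of FOS. Its counts were low in GFP cells in DMSO, at 25, 31 and 31. EGR2 and EGR3 were not detected. Of the 17, 2 rose and 6 fell with dBRD9-A in GFP cells, median -0.14 (10 and 0 with spike-in scaling). All genes tested had 7.43% higher and 8.47% lower there, and spike-in scaling called 11310 of 15750 in either direction. KLF10 rose by log2 0.35 (adjusted p 6.12e-06), while HMGA2 was lower by -0.40 (adjusted p 9.34e-07) and PHLDA1 by -0.32 (adjusted p 2.63e-05), against -0.04 and 0.04 with spike-in scaling.

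Components of the cascade itself changed mostly by small amounts. Of 24, 23 were tested, and 11 rose and 5 fell with SMARCB1 in DMSO, median 0.11 (16 and 2 with spike-in scaling). The shares over all genes tested were 33.5% and 31.6%. Spike-in scaling put the median of all genes at 0.165 in this comparison and called 9412 of 15750 in either direction. KSR1, a scaffold that holds RAF, MEK and ERK, rose from 2.81 ± 0.117 to 20.8 ± 0.668 CPM (SD, n = 3, log2 2.88, adjusted p 7.63e-16). RPS6KA1, a kinase that ERK activates, fell from 262 ± 6.4 to 98.4 ± 0.995 CPM (SD, n = 3, log2 -1.41, adjusted p 6.94e-18), and its relative RPS6KA3 rose (log2 0.72, adjusted p 2.1e-10). GAB1, a docking protein below receptors, fell (log2 -1.06, adjusted p 2.27e-12). CIC, the repressor named above, averaged 31.1 ± 0.641 CPM in GFP cells and 32.3 ± 0.767 CPM in SMARCB1 cells (SD, n = 3, both in DMSO), and is named here for its role and outside the naming rule. With dBRD9-A in GFP cells MAPK3 rose (log2 0.17, adjusted p 0.00483), and SHOC2 at -0.23 and RPS6KA1 at -0.17 were lower relative to the bulk of genes but at 0.13 and 0.19 with spike-in scaling, under which 22 of the 23 were higher and 0 lower, in place of 1 and 2. Over all genes tested 7.43% were higher and 8.47% lower, and spike-in scaling called 11310 of 15750 in either direction.

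Further inhibitors of the cascade were also divided. All 14 were tested, and 7 rose and 5 fell with SMARCB1 in DMSO, median 0.16 (9 and 3 with spike-in scaling). The shares over all genes tested were 33.5% and 31.6%. Spike-in scaling put the median of all genes at 0.165 in this comparison and called 9412 of 15750 in either direction. PEA15, which keeps ERK in the cytoplasm, rose from 51.7 ± 0.513 to 111 ± 5.67 CPM (SD, n = 3, log2 1.10, adjusted p 4.59e-14), and RASAL2, a RAS GTPase-activating protein, rose by log2 1.08 (adjusted p 1.04e-13). ERRFI1, an inhibitor of EGF receptors, fell from 423 ± 9.28 to 238 ± 4.79 CPM (SD, n = 3, log2 -0.83, adjusted p 1.02e-14). IL17RD, which inhibits FGF signalling, fell by 0.62 on the log2 scale (adjusted p 1.01e-10). With dBRD9-A in GFP cells 2 were called higher and 1 lower (13 and 0 with spike-in scaling), the latter ERRFI1 at -0.34 (adjusted p 5.07e-08), which was at 0.02 with spike-in scaling. Over all genes tested 7.43% were higher and 8.47% lower, and spike-in scaling called 11310 of 15750 in either direction.

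Upstream of the cascade, 11 of 17 FGF ligands, receptors and co-receptors were tested, and 6 rose and 4 fell with SMARCB1 in DMSO, median 0.32. Of all genes tested, 33.5% rose and 31.6% fell. FGF5, a ligand, rose from 1.11 ± 0.162 to 9 ± 0.157 CPM (SD, n = 3, log2 3.01, adjusted p 4.5e-13). The receptor FGFR3 had 9.07, 8.68 and 9.2 CPM in GFP cells in DMSO, against 18.9, 17.6 and 20.5 CPM with dBRD9-A. In SMARCB1 cells it had 23.7, 20 and 21.1 CPM and then 24, 23.5 and 22.7 CPM. The GFP cells in DMSO were apart from all the other libraries. FGFR3 thus rose with dBRD9-A in GFP cells (log2 1.08, SE 0.069, adjusted p 7.41e-09), as DUSP6 did, but unlike DUSP6 it also rose with SMARCB1 (log2 1.26, SE 0.067, adjusted p 1.89e-11). Its interaction was -0.96 (adjusted p 7.04e-06). With dBRD9-A in GFP cells FGFR4 rose by log2 0.31 (adjusted p 0.00267), while FGFR2 at -0.39 (adjusted p 1.25e-07) and FGF2 at -0.33 (adjusted p 1.47e-06) were lower relative to the bulk of genes, against -0.03 and 0.03 with spike-in scaling. Of the 11, 2 were called higher and 4 lower, and 6 and 1 with spike-in scaling. All genes tested had 7.43% higher and 8.47% lower, and spike-in scaling called 11310 of 15750 in either direction. FGF9, FGF19 and KLB were not detected.

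In SMARCB1 cells, where 1.93% of all genes were called, dBRD9-A gave 1 higher and 1 lower among the ERK-induced targets (KLF10 0.17 and HMGA2 -0.29), 1 lower among the inhibitors (ERRFI1 -0.15) and 2 lower on the FGF list (FGF2 -0.21 and FGFR2 -0.19). With spike-in scaling the targets had 0 higher and 2 lower, with KLF10 at 0.03 and no longer called (adjusted p 0.746), the inhibitors 0 and 2, with ERRFI1 at -0.28, and the FGF list 0 and 2. That fit called 873 of all 15750 genes tested. The other 2 lists had none in edgeR or DESeq2, with 4 family members and 3 cascade genes higher at an unadjusted p under 0.05 in edgeR. The interaction, which called 3.8% of all genes, called 1 family member, 2 cascade genes (RPS6KA1 0.24 and SHOC2 0.20), 1 inhibitor (ERRFI1 0.19) and 2 FGF genes (FGFR2 0.20 and FGFR3), and no ERK-induced target in edgeR or DESeq2, where 5 were higher and 1 lower at an unadjusted p under 0.05. With spike-in scaling it put none of these lists' genes higher except 1 FGF gene, and 5, 23, 14, 7 and 13 lower in that order. It then called 11270 of all 15750 genes tested in either direction. With dBRD9-A present, SMARCB1 raised 5 and lowered 1 family member, 7 and 9 targets, 10 and 4 cascade genes, 7 and 5 inhibitors, and 6 and 3 FGF genes, against 4 and 2, 4 and 11, 2 and 15, 3 and 7, and 4 and 5 with spike-in scaling. Over all genes tested 33% were higher and 30.4% lower, and spike-in scaling called 11175 of 15750 in either direction.

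**Figure D4:**
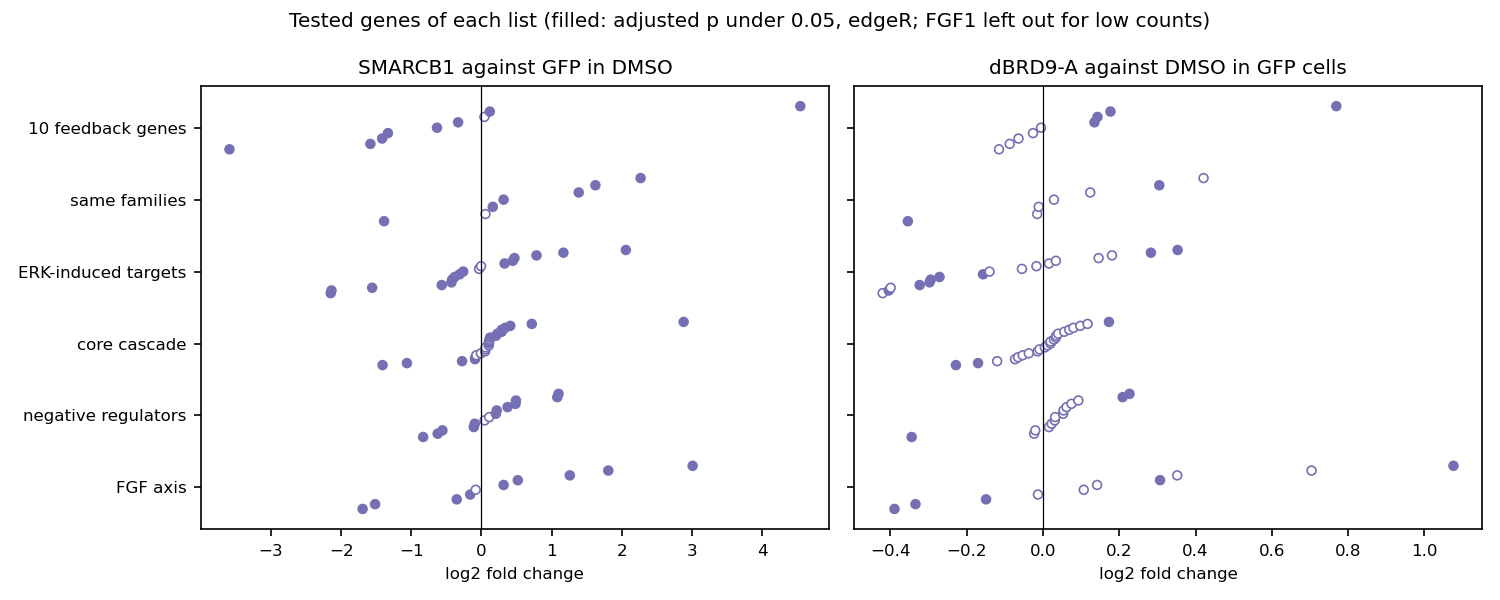
Log2 fold change (horizontal axis) of each tested gene in the 6 lists (vertical axis, genes within a list ordered by value), with SMARCB1 in DMSO on the left and with dBRD9-A in GFP cells on the right; filled points passed adjusted p under 0.05 in edgeR, and FGF1 is left out for its low counts. In the right panel DUSP6 at 0.77 and FGFR3 at 1.08 are the largest called rises.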

How the data were processed

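The 3 tables deposited by the authors give RSEM expected counts, per the file names, for 12 libraries made with a TruSeq Stranded mRNA kit, per the labels' protocols. The submitters' processing notes name STAR, RSEM 1.3.1, DESeq2, GRCh37 and hg19 with no role or order, and the annotation and strand setting are not given in the sources used here. Values of a library did not differ between tables. Expected counts were rounded. The 40 spike-in identifiers (0.9634% to 1.302% of counts) entered neither library sizes nor tests. Symbols matched 51996 of 57820 identifiers. In R 4.3.3, edgeR 4.0.16 kept genes by filterByExpr (minimum count 10), scaled by TMM (factors 0.9765 to 1.016) and fitted its quasi-likelihood model to all 12 libraries, 1 coefficient a group, with Benjamini-Hochberg adjustment over 15750 genes. SEs came from the F statistic and 95% intervals used 16.68 degrees of freedom. Replicates differed by more than sampling noise (chi-square per degree of freedom 2.954 to 25.62), so each counted once. The highest values, 10.78 and 25.62, were those of the pairs that held SMARCB1 dBRD9-A replicate 2. Alternatives were DESeq2 1.42.0 (size factors and Wald test), spike-in library sizes, no filter, only the groups compared, a replicate block and leaving out each library. The test was checked on simulated data with changes in the GFP dBRD9-A libraries alone. That check does not cover the SMARCB1 comparisons or the interaction. The members and lists were chosen with earlier results of these data known. All members are named. From each list at most the 2 largest rises and 2 largest falls per comparison were eligible, among called genes with a mean of at least 50 counts and no overlap between groups. Genes at or under 3 counts in all libraries are given as not detected. Log2 CPM for likeness used a prior count of 2. Exon lengths and overlapping genes came from GENCODE 29 (GRCh38), a build other than the one in the processing notes. PECAM1 had no matched row and was not used here.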

Additional observations from a re-analysis of the deposited data

Results flagged for a closer look

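The response of DUSP6 to dBRD9-A differed between the cell states by a test of the difference itself, with a log2 interaction of -0.51 (SE 0.052, edgeR adjusted p 1.23e-05). The treated libraries were higher in 3 of 3 replicates in both states, at 220 to 226 CPM against 128 to 136 CPM in GFP cells and at 59.8 to 66.5 CPM against 51 to 53.2 CPM in SMARCB1 cells. With spike-in scaling the interaction was -1.01, against a median of all genes of -0.491. SMARCB1 mRNA was 1.43-fold lower with dBRD9-A in SMARCB1 cells (log2 -0.52, edgeR adjusted p 4.95e-08), and its part in this difference was not tested. The summed level of 4 markers of other cell types was at most 0.761 CPM in any library, and its part was not tested either.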

How the results depend on the processing

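DESeq2 size factors, the DESeq2 Wald test and the absence of a filter on low counts each kept the call of all 45 values of the members. Each also kept the direction of the called values. Spike-in scaling changed most, by moving all genes together: the number of called members became 8 with dBRD9-A in GFP cells, 0 in SMARCB1 cells and 8 for the interaction. Of all 15750 genes tested it called 11310, 873 and 11270 in the same order. Of the members called in the main or the spike-in fit, SPRY1 (0.296), SPRY4 (0.354), SPRED2 (0.273) and ETV4 (0.333) turned with dBRD9-A in GFP cells. SPRY1 turned to -0.313 with SMARCB1 given dBRD9-A. For the interaction SPRY4 (-0.35), SPRED2 (-0.431), ETV4 (-0.432) and ETV5 (-0.365) turned. Uncalled values also turned, namely SPRY2 with dBRD9-A in GFP cells (0.239) and for the interaction (-0.45). In SMARCB1 cells DUSP5 (-0.111), SPRED1 (-0.044) and ETV4 (-0.099) did so with dBRD9-A. Among genes of the lists eligible for naming, those that turned with dBRD9-A in GFP cells were DUSP1 (0.006), PHLDA1 (0.038), SHOC2 (0.131), RPS6KA1 (0.19), ERRFI1 (0.016) and FGF2 (0.026). For the interaction they were DUSP1 (-0.038), RPS6KA1 (-0.255), SHOC2 (-0.29), ERRFI1 (-0.301) and FGFR2 (-0.294), and with SMARCB1 in DMSO FGF2 (0.006). How the spike-ins were added is not stated, and the cause of the shift was not tested. A fit of only the groups compared gave 1 called member with dBRD9-A in SMARCB1 cells, ETV5 having an adjusted p of 0.258 with fewer libraries. The replicate block also gave 1 there (ETV5 0.276, adjusted p 0.0729) and changed no other call of a member. No pairing by replicate number was seen in the values: same-numbered libraries of different groups had correlations of -0.0559 to 0.0611 over 18 pairs, 0 of them over 0.1, and 3 of 12 libraries correlated best with their own number. These correlations do not tell whether same-numbered libraries were prepared together. Leaving out each library in turn gave 7 to 8 called members with SMARCB1 in DMSO, 2 to 4 with dBRD9-A in GFP cells, 1 to 2 in SMARCB1 cells, 7 to 7 with SMARCB1 given dBRD9-A and 1 to 1 for the interaction. Of 540 such values of the members 21 lost their call, and 0 changed direction among those called in either fit. Uncalled values near 0 did change sign, such as SPRY2 with dBRD9-A in GFP cells, at -0.362 to 0.05. KLF10 in SMARCB1 cells lost its call in 6 of 12 of these fits, SPSB1 in GFP cells and the interaction of FGFR2 in 1 each. Depth limits DUSP4 and SPRY2 most.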
